A study of Mus musculus with 12 samples.

Results

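The apoptosis and inflammatory cell death genes were 35 mouse genes, out of the 47632 genes measured, that were listed by name as caspases, BCL2 family members, death receptors and their adaptors, inhibitor of apoptosis proteins, and genes of necroptosis and pyroptosis. All 35 were found by their gene symbol in each of the 3 deposited tables. By textbook role, 24 of them promote cell death, 7 promote survival, and 4 are adaptors or receptors that can lead to either outcome (Tnfrsf1a, Tradd, Ripk1 and Bcl10). RNA had been sequenced from EDTA-isolated colonic epithelial cells of C57/BL6 mice in an experiment with dextran sodium sulfate (DSS), a chemical that injures the colonic epithelium. Tfeb ΔIEC animals were homozygous for the floxed Tfeb allele and carried 1 copy of villin-Cre, which is expressed throughout the intestinal epithelium, so that deletion was limited to the cells that express villin. Tfeb flox/flox littermates carried the same floxed alleles without Cre. Each genotype was sampled on Day 0 (aged 12 and 10 weeks), Day 4 (12 weeks) and Day 11 (10 weeks), with 2 animals per group. The labels give 2.5% DSS for every group, while the study describes Day 0 as untreated and its methods name a slightly different concentration. The authors combined both animals of a group into 1 value in FPKM (fragments per kilobase of transcript, scaled to the number of mapped fragments). Each value below is the authors' pooled value, the spread between animals cannot be computed from these values, and no test between genotypes was made here.

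Apoptosis is carried out by caspases. In its mitochondrial branch, BH3-only proteins set BAX and BAK to open the outer mitochondrial membrane, cytochrome c is released and binds APAF1, and caspase-9 is activated, while BCL2, BCL-XL and MCL1 restrain the opening and IAP proteins restrain caspases. In its receptor branch, FAS and TNF receptors act through FADD and caspase-8, with cFLIP as the inhibitor. When caspase-8 is not active, RIPK1 and RIPK3 can pass the signal to MLKL, which ruptures the cell in necroptosis. Pyroptosis begins at inflammasomes, in which a sensor such as NLRP6 and the adaptor ASC, encoded by Pycard, activate caspase-1, and gasdermin D then forms pores. In the colon, shedding and death of surface cells are part of normal turnover, and DSS adds injury from the lumen.

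The start-site regions of 5 members are shown because TFEB is known to bind E-box sequences, and because these members either held an exact E-box or had large differences between genotypes. Each is the 250 bases before the RefSeq start on GRCm38.p6, the assembly of mm10, written from 5′ to 3′ on the strand of the gene, with CACGTG in capitals where present. Casp1 is chr9:5298267-5298516 (+), Ripk3 is chr14:55788858-55789107 (−), Bax is chr7:45466899-45467148 (−), Nlrp6 is chr7:140920652-140920901 (+) and Pycard is chr7:127993868-127994117 (−).
Casp1: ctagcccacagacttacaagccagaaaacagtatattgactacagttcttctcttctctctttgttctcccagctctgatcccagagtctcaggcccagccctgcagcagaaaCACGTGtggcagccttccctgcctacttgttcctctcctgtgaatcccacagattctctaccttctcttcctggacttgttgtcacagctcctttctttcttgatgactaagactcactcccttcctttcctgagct
Ripk3: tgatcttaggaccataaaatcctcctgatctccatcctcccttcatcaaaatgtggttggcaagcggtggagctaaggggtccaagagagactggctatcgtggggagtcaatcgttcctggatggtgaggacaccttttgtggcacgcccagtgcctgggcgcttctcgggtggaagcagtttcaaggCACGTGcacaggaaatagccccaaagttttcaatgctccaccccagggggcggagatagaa
Bax: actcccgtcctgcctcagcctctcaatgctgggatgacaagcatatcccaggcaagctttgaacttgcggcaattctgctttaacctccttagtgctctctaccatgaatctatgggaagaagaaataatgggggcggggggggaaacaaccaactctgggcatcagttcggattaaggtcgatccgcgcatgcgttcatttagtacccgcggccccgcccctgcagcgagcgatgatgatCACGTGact
Nlrp6: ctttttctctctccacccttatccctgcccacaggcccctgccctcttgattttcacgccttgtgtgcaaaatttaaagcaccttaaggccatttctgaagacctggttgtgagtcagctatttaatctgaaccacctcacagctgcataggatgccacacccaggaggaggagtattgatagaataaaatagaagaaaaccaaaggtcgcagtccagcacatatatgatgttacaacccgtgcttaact
Pycard: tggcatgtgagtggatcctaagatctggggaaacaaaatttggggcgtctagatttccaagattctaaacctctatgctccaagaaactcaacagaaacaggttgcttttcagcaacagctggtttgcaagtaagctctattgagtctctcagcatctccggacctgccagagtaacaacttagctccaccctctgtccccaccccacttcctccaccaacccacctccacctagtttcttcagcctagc
The palindrome CACGTG, searched on both strands, began 137 bases before the start of Casp1, 61 bases before that of Ripk3 and 9 bases before that of Bax, and a copy lay 110 bases before the start of Fas. With an alternative start of Bbc3, 5 of the 32 members with a RefSeq region (15.6%) held it, against 6.86% of 27025 genes. Of these 5, Casp1, Ripk3 and, slightly, Fas were higher and Bax and Bbc3 were lower in Tfeb ΔIEC cells on Day 4. Fas and Bbc3 were below 1 FPKM in both genotypes on that day. A relation of the letters to direction was not tested. The core of the interferon-stimulated response element, searched on both strands as GAAA, any 2 bases and GAAA, was in 0 of the 32 members and in 3.46% of all genes. A match of letters is a description and not a binding site. Gsdmd, Tnfrsf10b and Tradd had no RefSeq region here.

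Tfeb itself, the targeted gene, was at 0.90 FPKM in Tfeb flox/flox and 0.19 FPKM in Tfeb ΔIEC cells on Day 0, at 1.08 and 0 FPKM on Day 4, and at 1.18 and 0 FPKM on Day 11. The 9 epithelial markers were each at 1 FPKM or more in all 6 groups, but several differed between Tfeb flox/flox and Tfeb ΔIEC cells. On Day 4 Krt20 was at 101 and 931 FPKM, Vil1 at 30.6 and 224 FPKM and Cdh1 at 24.5 and 164 FPKM. Epcam, Krt18 and Cdx2 were also higher in Tfeb ΔIEC cells. Lgals4, at 16806 and 9196 FPKM, was lower, as were Krt8 and, slightly, Krt19. Of 16 leukocyte markers, 4 to 9 were above 0 in a group, and S100a9, Csf3r, Adgre1 and Cd68 were at 0 in every group. Their summed level was 6.86 to 162 FPKM, nearly all of it from Ly6g on Days 4 and 11, and 1.98 to 9.03 FPKM without Ly6g. Without Ly6g the Day 4 sum was 2.14 FPKM (Tfeb flox/flox) and 7.99 FPKM (Tfeb ΔIEC), and the part of leukocyte RNA in the differences below was not tested. The 11 stromal and endothelial markers summed to 0.71 to 2.93 FPKM, with none at 1 FPKM. In such bulk samples, fewer cells of a type and less RNA per cell cannot be told apart.

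The Day 4 and Day 11 tables were so alike that Day 11 adds little independent evidence. Of the members above 0 on both days, 18 of 32 (Tfeb flox/flox) and 22 of 32 (Tfeb ΔIEC) had Day 11 values within 10% of their Day 4 values, and over all genes these shares were 70.9% and 71.6%. Bcl2 had the very same deposited value on both days in Tfeb flox/flox cells, as had Bcl2l11 and Tnfrsf10b in Tfeb ΔIEC cells, and over all genes 14.3% and 10.2% had the same value. Between Days 0 and 4, 3 of 31 members were within 10% in each genotype, as were 8.62% and 12.9% of all genes. No gene above 0 on both days had the same value on Days 0 and 4. Whether the Day 4 and Day 11 tables share animals or reads cannot be told from these values. How the tables were scaled to each other is not known here, so levels on different days are set side by side and not tested.

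The members ranged from genes listed at 0 to one of the most abundant mRNAs of the epithelium. Pycard, at 360 to 3529 FPKM, was the highest member in all 6 groups and lay above 98.46% to 99.43% of the genes above 0, and it made up 58.2% to 94.6% of the summed level of the 35 members. Gsdmd, Casp1, Tradd, Nlrp6, Bax and Casp8 were each at 8.55 FPKM or more in every group. Between 7 and 15 members were below 1 FPKM in a group, among them Ripk1, Tnfrsf10b, Bcl2l11 and Bcl2. The 7 survival genes had a summed level of 9.05 to 23.1 FPKM. The 24 death-promoting genes with Pycard left out summed to 154 to 284 FPKM, over a larger number of genes. These comparisons between genes use FPKM, a level per length, and rest on the transcript lengths that the authors' counting used.

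**Figure D1:**
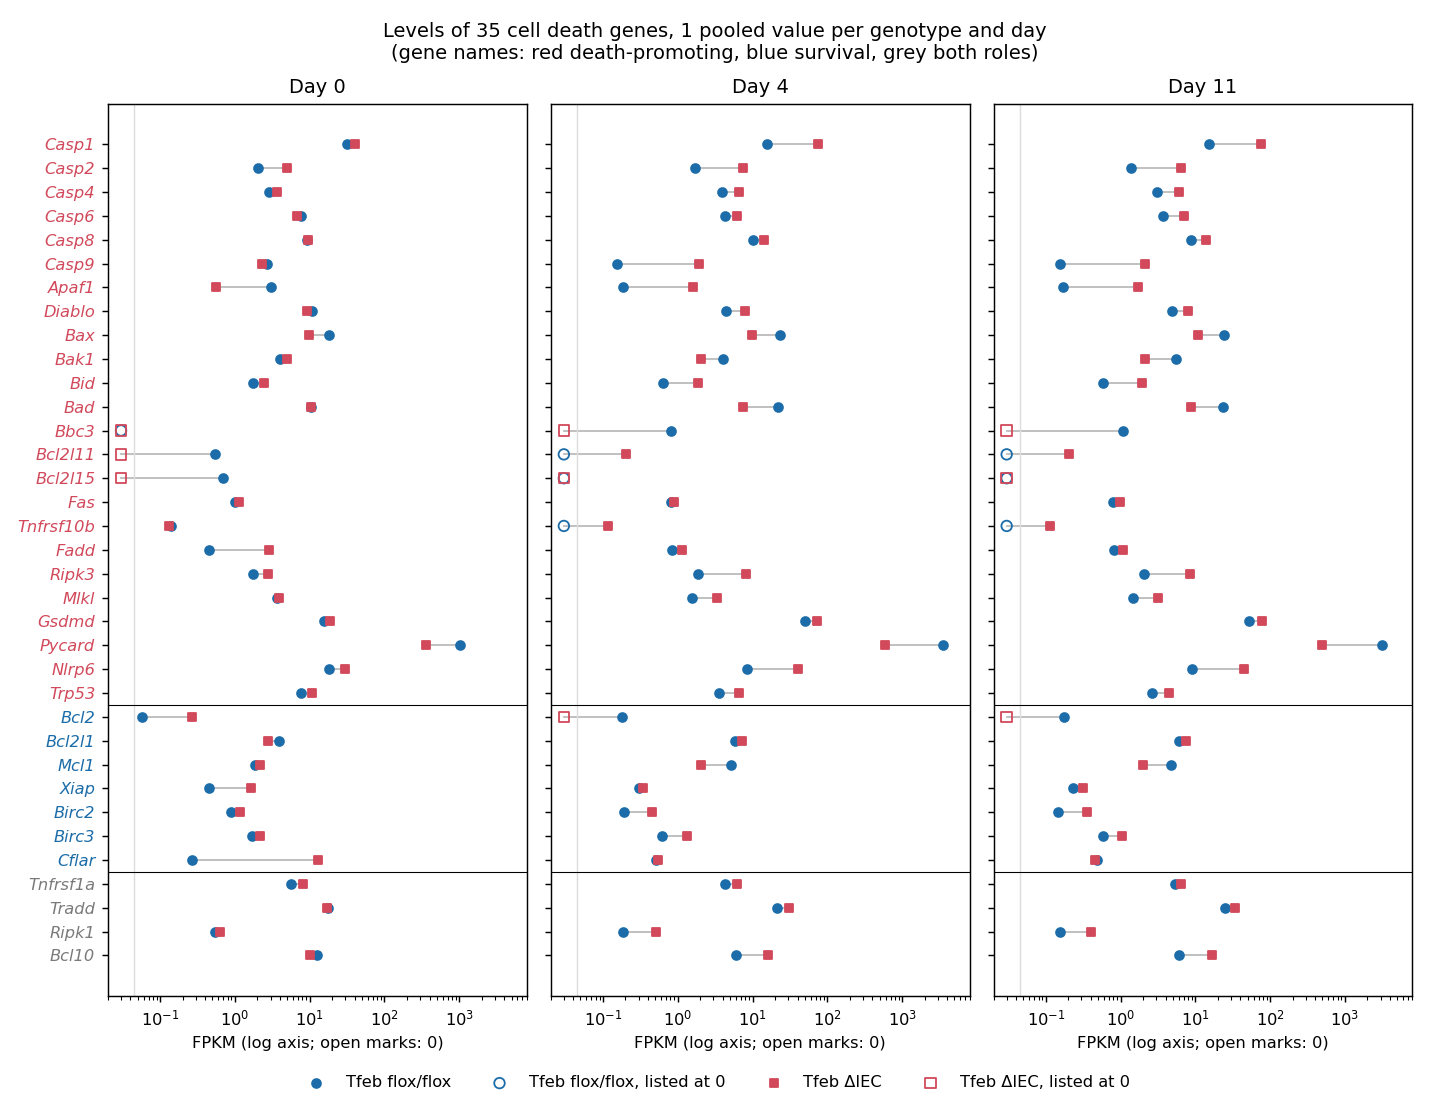
Level of each of the 35 genes in FPKM on a log axis, in 3 panels for Days 0, 4 and 11. Circles are Tfeb flox/flox and squares Tfeb ΔIEC cells, each the authors' pooled value of 2 animals, open marks are genes listed at 0, and Pycard lies far to the right of all others, with its Tfeb ΔIEC value to the left of its Tfeb flox/flox value on each day.

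Differences between genotypes are given as log2(FPKM + 1) in Tfeb ΔIEC minus Tfeb flox/flox cells, a scale that understates changes of low genes. A member was counted where it had at least 1 FPKM in either genotype and the difference was at least 1, that is 2-fold. On Day 0, 29 of 35 members had 1 FPKM, 2 were higher (Fadd and Cflar) and 2 lower (Apaf1 and Pycard) by this measure, beside 13.5% of all 9993 genes higher and 16.1% lower. On Day 4, 25 members had 1 FPKM, 7 were higher (Casp1, Casp2, Casp9, Apaf1, Ripk3, Nlrp6 and Bcl10) and 4 lower (Pycard, Bad, Bax and Mcl1), beside 25.6% and 26.1% of 9371 genes. On Day 11, 26 members had 1 FPKM, the same 7 were higher and 5 were lower (Pycard, Bad, Bax, Bak1 and Bbc3), beside 26.1% and 25.7% of 9365 genes. The members' counts were near or below these background shares, at this limit and on the deposited scale. Of the members with 1 FPKM, 6, 5 and 6 reached 1 FPKM in 1 genotype only on Days 0, 4 and 11. Among those counted past 2-fold, these were Fadd, Cflar and Apaf1 on Day 0, and Casp9 and Apaf1 on Day 4. On Day 11 they were Casp9, Apaf1 and Bbc3. Such members entered the counts only through the genotype where they were high. At a limit of 1.5-fold, 12 of 25 members were higher on Day 4 beside 36.4% of all genes, and 5 were lower beside 34.3%. On Day 11 these were 14 of 26 beside 37.1% and 6 beside 34.1%, and on Day 0 5 of 29 beside 27.3% and 3 beside 25.6%. At 4-fold, only Casp1 and Nlrp6 were higher and only Pycard was lower, on Day 4 beside 7.36% and 10.3% and on Day 11 beside 7.46% and 10.2%, while Cflar was the 1 higher and 0 were lower on Day 0, beside 2.09% and 3.35%. Just inside the 2-fold limit on Day 4 were Mcl1 at -1.03 and Apaf1 at 1.15, and just outside were Bid at 0.81 and Bbc3 at -0.87.

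**Figure D2:**
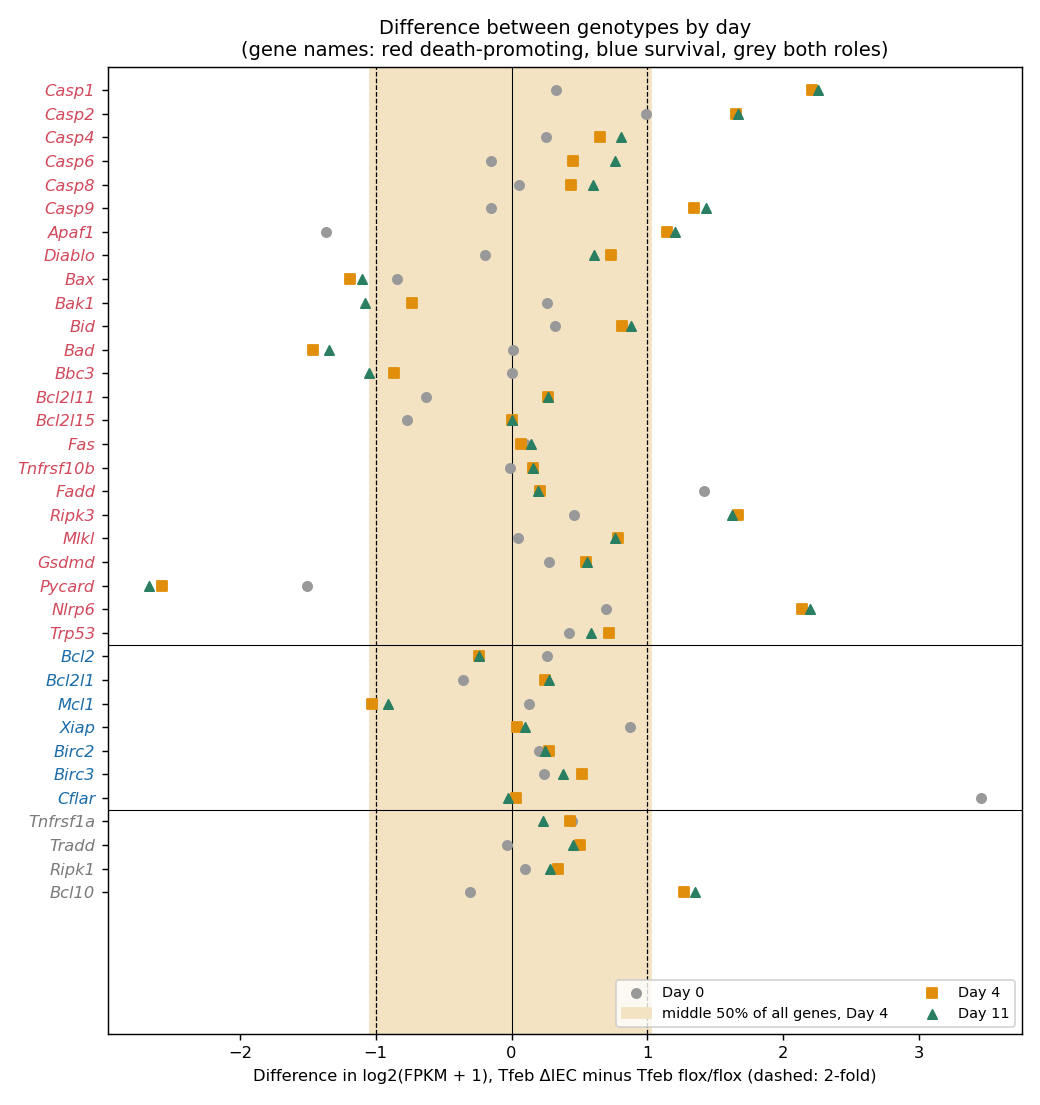
Difference in log2(FPKM + 1), Tfeb ΔIEC minus Tfeb flox/flox cells, for each of the 35 genes on Day 0 (grey circles), Day 4 (orange squares) and Day 11 (green triangles). The dashed lines mark 2-fold and the band the middle 50% of all genes on Day 4, and Casp1, Nlrp6, Ripk3 and Casp2 lie to the right of the band and Pycard to its left on both later days.

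The death-promoting and survival genes were then set side by side. On Day 4, 19 of 24 death-promoting genes had 1 FPKM, with a median difference of 0.72, and 15 of the 19 differences were above 0, as were 51.3% of those of all genes. For survival genes, 3 of 7 had 1 FPKM (Bcl2l1, Mcl1 and Birc3), with a median of 0.24, and the median of all genes was 0.06. Over all listed members, whatever their level, the medians were 0.50 for 24 death-promoting and 0.04 for 7 survival genes. On Day 11 the medians were 0.68 for 20 death-promoting and 0.28 for 3 survival genes, beside 0.08 for all genes. On Day 0 they were 0.18 for 20 and 0.22 for 6, beside 0.06. The survival median rests on few genes, and it was -0.39 on Day 4 and -0.31 on Day 11 when only Bcl2l1 and Mcl1, which had 1 FPKM in both genotypes, were kept. The death-promoting and survival medians of Day 4 also moved with the scale. They were 1.37 and 0.94 with each group divided by its sum of FPKM values. After subtraction of the median of genes of like transcript length they were 0.49 and -0.39. Within the death-promoting group, all 6 caspases were above 0 on Day 4, and of the 4 death-promoting BCL2 family members with 1 FPKM, 1 was (Bid).

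Caspases are proteases that start or execute cell death or cut inflammatory substrates. All 6 listed caspases were higher in Tfeb ΔIEC cells on Day 4, with a median difference of 0.997, and 3 of 6 passed 2-fold, beside 51.3% of all genes above 0 and 25.6% past 2-fold higher. Of these 3, Casp9 reached 1 FPKM on Day 4 only in Tfeb ΔIEC cells. With a pseudocount of 5 FPKM Casp1 alone stayed past 2-fold (Casp2 0.90 and Casp9 0.43). With each group divided by its sum of FPKM values all 6 were past it. Casp1, which processes interleukin-1β and interleukin-18 and lies at chr9:5298517-5307265, was at 31.9 FPKM in Tfeb flox/flox and 40.3 FPKM in Tfeb ΔIEC cells on Day 0, at 15.4 and 75.4 FPKM on Day 4, and at 15.0 and 75.7 FPKM on Day 11. The difference was thus small on Day 0 (0.33) and the largest of any higher member in log2(FPKM + 1) on Days 4 and 11 (2.22 and 2.26). The ratio of levels on Day 4 was 4.88-fold, below those of the low genes Casp9 (12.6-fold) and Apaf1 (8.80-fold), which with a pseudocount of 0.1 FPKM also exceeded Casp1 (3.001 and 2.599 against 2.28). Tfeb flox/flox cells had a lower Casp1 value on Day 4 than on Day 0, and Tfeb ΔIEC cells a higher one.

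Casp2, a caspase linked to DNA damage and lipid stress, was at 2.03 and 5.03 FPKM in Tfeb flox/flox and Tfeb ΔIEC cells on Day 0, at 1.71 and 7.52 FPKM on Day 4, and at 1.37 and 6.51 FPKM on Day 11. Its difference in log2(FPKM + 1) was already 0.99 on Day 0, where the ratio of levels was 2.48-fold, and 1.65 and 1.67 later. Casp9, the initiator caspase of the mitochondrial branch, was at 2.70 and 2.32 FPKM on Day 0, at 0.15 and 1.92 FPKM on Day 4, and at 0.15 and 2.11 FPKM on Day 11. Its difference of 1.34 on Day 4 went with a low Tfeb flox/flox value, while the Tfeb ΔIEC value was close to that of Day 0. Casp4, the sensor of cytosolic lipopolysaccharide, was at 3.90 and 6.70 FPKM on Day 4 (0.65). Casp6, an executioner caspase, was at 4.29 and 6.26 FPKM (0.46), and Casp8, the initiator of the receptor branch, at 10.2 and 14.2 FPKM (0.44). On the deposited scale these 3 were within 2-fold on all days, with differences of 0.60 to 0.81 on Day 11. With each group divided by its sum of FPKM values they were past it, at 1.35, 1.16 and 1.21 on Day 4 and 1.49, 1.46 and 1.37 on Day 11.

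Apaf1, the scaffold on which caspase-9 is activated, showed opposite differences on Day 0 and on the later days. It was at 2.998 FPKM in Tfeb flox/flox and 0.55 FPKM in Tfeb ΔIEC cells on Day 0, at 0.18 and 1.62 FPKM on Day 4, and at 0.17 and 1.70 FPKM on Day 11. The differences were -1.37, 1.15 and 1.20, and in each of them 1 genotype was below 1 FPKM. Apaf1 and Casp9 thus shared low Tfeb flox/flox values on Days 4 and 11. Diablo, whose mitochondrial protein counters IAPs, was at 10.7 and 9.28 FPKM on Day 0, and at 4.44 and 8.04 FPKM on Day 4 (0.73).

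Most of the death-promoting BCL2 family members were lower in Tfeb ΔIEC cells on the later days. On Day 4, 4 of 7 had 1 FPKM and 3 of these 4 were lower, 2 of them past 2-fold, and on Day 11 4 of 5 were lower past 2-fold, beside 26.1% and 25.7% of all genes. Bbc3 entered the Day 11 count only through Tfeb flox/flox cells. Neither Bax nor Bad stayed past 2-fold once the median of genes of like length was subtracted (-0.58 and -0.85 on Day 4, -0.49 and -0.73 on Day 11). Bak1 (-1.35) and Bbc3 (-1.32) stayed past it on Day 11. With each group divided by its sum of FPKM values, none of the 4 was past 2-fold on Day 11 (Bax -0.32, Bad -0.57, Bak1 -0.44 and Bbc3 -0.88). Bax, a pore-forming effector at chr7:45461697-45466898, was at 18.2 and 9.70 FPKM in Tfeb flox/flox and Tfeb ΔIEC cells on Day 0, at 23.4 and 9.72 FPKM on Day 4, and at 24.2 and 10.8 FPKM on Day 11. It was lower in Tfeb ΔIEC cells on all days, with differences of -0.84, -1.19 and -1.10. Bak1, the other effector, was at 3.96 and 4.94 FPKM on Day 0, at 4.04 and 2.04 FPKM on Day 4 (-0.73), and at 5.53 and 2.09 FPKM on Day 11 (-1.08).

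Bad, a BH3-only protein that binds BCL-XL, was nearly equal on Day 0 at 10.4 and 10.5 FPKM. It was at 22.1 and 7.39 FPKM on Day 4 and at 23.7 and 8.73 FPKM on Day 11, with differences of -1.46 and -1.34. Here the Tfeb flox/flox value was higher on the later days and the Tfeb ΔIEC value lower. Bbc3, which encodes PUMA, a p53 target, was listed at 0 in both genotypes on Day 0, at 0.82 and 0 FPKM on Day 4, and at 1.07 and 0 FPKM on Day 11. Bid, the BH3-only protein that caspase-8 cleaves, had higher values in Tfeb ΔIEC cells, 0.64 and 1.88 FPKM on Day 4 (0.81) and 0.58 and 1.91 FPKM on Day 11 (0.88).

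The remaining BCL2 relatives were barely measured. Bcl2l11, which encodes BIM, was at 0.55 and 0 FPKM on Day 0 and at 0 and 0.20 FPKM on both later days. Bcl2l15 was at 0.70 FPKM in Tfeb flox/flox cells on Day 0 and listed at 0 in the other 5 groups. Against a value of 0 no fold was computed.

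The survival side of the BCL2 family did not move as one. Bcl2 was at 0.06 and 0.27 FPKM on Day 0 and at 0.18 and 0 FPKM on Days 4 and 11. Bcl2l1, which encodes BCL-XL, was at 3.86 and 2.80 FPKM on Day 0 (-0.35), at 5.86 and 7.12 FPKM on Day 4 (0.24), and at 5.95 and 7.44 FPKM on Day 11 (0.28). Mcl1, a short-lived protein that holds BAK in check, was at 1.87 and 2.14 FPKM on Day 0, at 5.20 and 2.04 FPKM on Day 4 (-1.03), and at 4.67 and 2.02 FPKM on Day 11 (-0.91). Mcl1 was therefore higher on Day 4 than on Day 0 in Tfeb flox/flox cells, while the Tfeb ΔIEC value was nearly the same.

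The level of the effectors Bax and Bak1 together, divided by that of Bcl2, Bcl2l1 and Mcl1 together, was lower in Tfeb ΔIEC cells on each day. For Tfeb flox/flox and Tfeb ΔIEC cells it was 3.84 and 2.81 on Day 0, 2.45 and 1.28 on Day 4, and 2.75 and 1.36 on Day 11. Bax is short and lay in a length class with a median difference of -0.61 on Day 4, and Bcl2l1 and Mcl1 lay in classes with medians of 0.63 and 0.54. Bak1 lay in a class with a median of 0.22, and was at -0.73, or -0.95 after subtraction of that median. The basic transcripts of Mcl1, at 858 and 3418 nt, lie in different classes. The part of transcript length in this ratio was not tested. All death-promoting genes divided by all survival genes, a ratio made mostly of Pycard, was also lower in Tfeb ΔIEC cells on each day, at 130.3 and 23.2 on Day 0, 287 and 73.8 on Day 4, and 269.7 and 66.9 on Day 11. Only without Pycard, a choice made after seeing the data, was it higher on the later days, at 12.3 and 23.5 on Day 4 and 13.1 and 24.4 on Day 11, with 17.0 and 7.61 on Day 0. The Day 0 gap rests on Cflar, without which, also chosen after seeing the data, the values were 17.5 and 17.2 on Day 0 and 12.8 and 24.6 on Day 4. On Day 4 the sums behind the ratio without Pycard, with Cflar kept, were 158 and 278 FPKM for the death-promoting genes and 12.9 and 11.8 FPKM for the survival genes. In Tfeb ΔIEC cells the numerator on Day 4 was led by Casp1, Gsdmd and Nlrp6, which belong to inflammatory cell death.

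**Figure D3:**
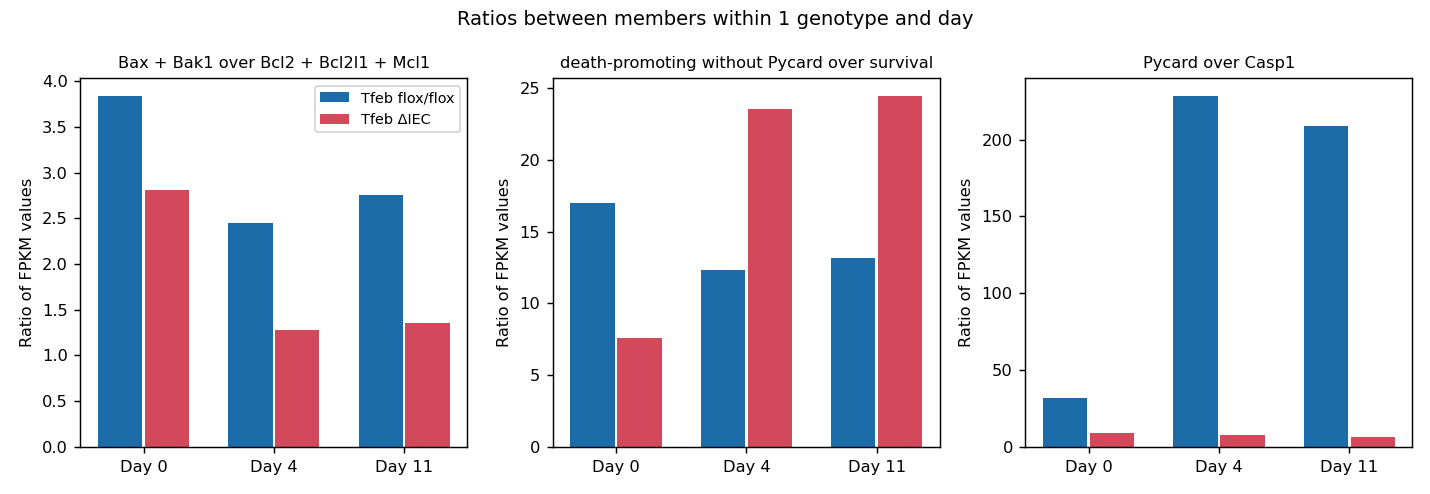
Ratios of FPKM values within each group on Days 0, 4 and 11, with Tfeb flox/flox in blue and Tfeb ΔIEC cells in red and axes that start at 0. The ratio of Bax and Bak1 to Bcl2, Bcl2l1 and Mcl1 is lower in Tfeb ΔIEC cells on each day (1.28 against 2.45 on Day 4), the ratio of all death-promoting genes without Pycard to survival genes is higher on Days 4 and 11 only (with Pycard, not drawn, it is lower on each day, 73.8 against 287 on Day 4), and the ratio of Pycard to Casp1 on Day 4 is 228 (blue) and 7.87 (red).

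The inhibitors of caspases were low in both genotypes. Xiap, which blocks executioner caspases, was at 0.45 and 1.66 FPKM on Day 0 (0.87) and at 0.31 and 0.35 FPKM on Day 4 (0.04). Birc2, a ubiquitin ligase of the TNF receptor complex, was at 0.88 and 1.16 FPKM on Day 0 and at 0.19 and 0.45 FPKM on Day 4. Its relative Birc3 was at 1.68 and 2.16 FPKM on Day 0 and at 0.61 and 1.31 FPKM on Day 4 (0.52). On log2(FPKM + 1) all 3 were within 2-fold on each day, while the ratio of their low levels was 3.65-fold for Xiap on Day 0 and 2.32-fold for Birc2 and 2.15-fold for Birc3 on Day 4.

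Cflar, which encodes cFLIP, the inhibitor of caspase-8 at the death receptors, had the largest difference in log2(FPKM + 1) of any member on any day, on Day 0. With a pseudocount of 5 FPKM this difference was 1.76, smaller in size than those of Pycard on Days 4 and 11 (-2.56 and -2.66). Cflar was at 0.26 FPKM in Tfeb flox/flox and 12.9 FPKM in Tfeb ΔIEC cells on Day 0, at 0.50 and 0.54 FPKM on Day 4, and at 0.49 and 0.46 FPKM on Day 11. The differences were 3.46, 0.03 and -0.03, and the Day 0 value of Tfeb ΔIEC cells stood apart from the other 5, which were all below 1 FPKM. In the same order of genotypes, Casp8 over Cflar was 34.99 and 0.749 on Day 0, and 20.1 and 26.4 on Day 4. Whether both animals had the high value cannot be seen in a pooled value.

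Of the death receptors and their adaptors, Fadd alone passed 2-fold on the deposited scale, on Day 0. Fas was at 0.82 and 0.90 FPKM on Day 4, and its differences were 0.07 to 0.14 over the 3 days. Tnfrsf10b, the receptor of TRAIL, was at 0.14 and 0.13 FPKM on Day 0 and at 0 and 0.12 FPKM on Days 4 and 11. Fadd, the adaptor that recruits caspase-8, was at 0.45 and 2.86 FPKM on Day 0, at 0.83 and 1.12 FPKM on Day 4, and at 0.81 and 1.08 FPKM on Day 11. Like Cflar, it passed 2-fold on Day 0 (1.42) and not later (0.21 and 0.20). Tnfrsf1a, the main TNF receptor, was at 4.28 and 6.13 FPKM on Day 4 (0.43), its adaptor Tradd at 21.5 and 30.8 FPKM (0.50) and the kinase Ripk1 at 0.18 and 0.50 FPKM (0.34, a 2.73-fold ratio of low levels). With each group divided by its sum of FPKM values, Tradd (1.31) and Tnfrsf1a (1.14) were past 2-fold on Day 4.

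Bcl10, an adaptor between antigen or G protein-coupled receptors and NF-κB, was at 12.6 and 9.99 FPKM on Day 0, at 6.07 and 16.0 FPKM on Day 4, and at 6.03 and 16.9 FPKM on Day 11. Its difference was -0.31 on Day 0 and 1.27 and 1.35 later. Trp53, which encodes p53, was at 7.70 and 10.7 FPKM on Day 0 (0.42) and at 3.61 and 6.60 FPKM on Day 4 (0.72).

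Of the necroptosis genes, Ripk3 passed 2-fold on the later days, and for Mlkl this depended on the scale. Ripk3, at chr14:55784995-55788865, was at 1.75 and 2.78 FPKM in Tfeb flox/flox and Tfeb ΔIEC cells on Day 0, at 1.88 and 8.16 FPKM on Day 4, and at 2.05 and 8.42 FPKM on Day 11. The differences were 0.46, 1.67 and 1.63, and the Tfeb flox/flox values were close to each other on all days. Mlkl, the pore-forming target of RIPK3, was at 3.71 and 3.87 FPKM on Day 0 and at 1.54 and 3.39 FPKM on Day 4 (0.79), a 2.19-fold ratio of levels. Its Day 4 difference was 0.25 once the median of like length was subtracted and 1.38 with each group divided by its sum (1.34 on Day 11). Ripk3 over Mlkl was 0.471 and 0.718 on Day 0 and 1.22 and 2.41 on Day 4.

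Among the inflammasome genes, Nlrp6 and Casp1 were higher and Pycard lower in Tfeb ΔIEC cells on the later days. Nlrp6, a sensor expressed in colonic epithelium and linked to mucus secretion, was at 18.1 and 30.1 FPKM in Tfeb flox/flox and Tfeb ΔIEC cells on Day 0, at 8.55 and 41.0 FPKM on Day 4, and at 8.93 and 44.7 FPKM on Day 11. As for Casp1, the Tfeb flox/flox value was lower and the Tfeb ΔIEC value higher on the later days than on Day 0, and the differences were 0.70, 2.14 and 2.20. Pycard, at chr7:127989708-127993867, was at 1026 and 360 FPKM on Day 0, at 3529 and 593 FPKM on Day 4, and at 3141 and 494 FPKM on Day 11. The adaptor that joins the sensor to caspase-1 was thus lower in Tfeb ΔIEC cells on every day, with differences of -1.51, -2.57 and -2.67 and a 5.95-fold ratio of levels on Day 4. By the length of its shortest annotated transcript, subtraction of the median of like length left -0.45, -0.74 and -0.86, inside 2-fold on all 3 days. Gsdmd, the pore former cut by caspase-1, was at 15.3 and 18.8 FPKM on Day 0, at 49.9 and 73.6 FPKM on Day 4 (0.55) and at 51.9 and 76.8 FPKM on Day 11 (0.56).

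Within Tfeb flox/flox and Tfeb ΔIEC cells, Pycard over Casp1 was 32.1 and 8.92 on Day 0, 228 and 7.87 on Day 4, and 209 and 6.53 on Day 11. Gsdmd over Casp1 was 0.480 and 0.465 on Day 0, and 3.23 and 0.976 on Day 4. In Tfeb ΔIEC cells Gsdmd and Casp1 were thus at nearly equal levels on Day 4, and in Tfeb flox/flox cells Gsdmd was the higher. The level of Pycard carries a limit of annotation: its GENCODE basic transcript has 3800 nt, and another annotated transcript has 493 nt, so its FPKM depends on which of them the authors' counting used.

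Differences followed transcript length across all genes. On Day 4 the median difference was -0.84 over 3626 genes of 1500 nt or less and 0.51 over 5645 longer genes, while members had a median of 0.55 over 6 shorter and 0.55 over 19 longer genes. Bax, with a median transcript length of 834 nt, and Bad lay in a length class whose genes had a median of -0.61. When the median of genes of like length was subtracted, Bax was at -0.58 and Bad at -0.85, and Casp9 at 0.71, Apaf1 at 0.77 and Bcl10 at 0.73, all within 2-fold. Casp1 at 2.25, Nlrp6 at 1.53, Ripk3 at 1.45 and Casp2 at 1.04 stayed past 2-fold, as did Mcl1 at -1.57. Diablo was past it at 2.00. Basic transcripts were 858 and 3418 nt for Mcl1, 681 to 2588 nt for Diablo and 1498 and 3897 nt for Casp9. The median length was used for each, their calls can depend on that choice, and other lengths were not tried for them. Pycard was at -3.18 by its 3800-nt transcript, and within 2-fold at -0.74 by the 493-nt one. The survival median turned to -0.39 on Day 4, while the death-promoting median stayed above 0 at 0.49.

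**Figure D4:**
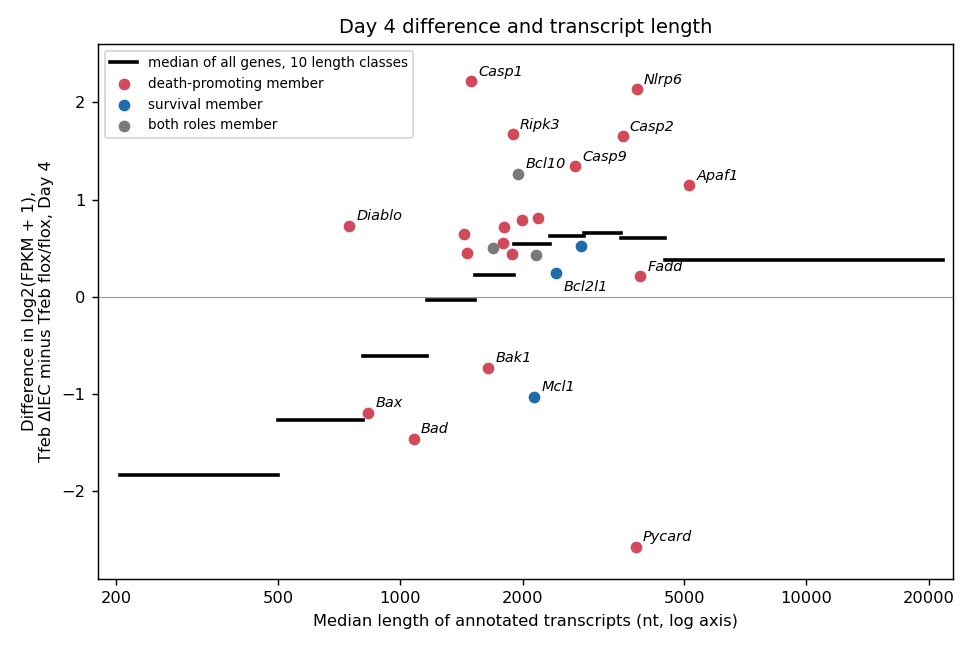
Difference in log2(FPKM + 1) on Day 4, Tfeb ΔIEC minus Tfeb flox/flox cells, against the median length of each gene's annotated transcripts on a log axis. Points are the 25 members with 1 FPKM in either genotype, coloured by role, bars are medians of all genes in 10 classes of length, and Bax and Bad lie below the bar of their length, itself below 0, while Casp1, Nlrp6 and Ripk3 lie above the bars of genes of their length. Pycard, drawn at 3800 nt, lies far below its bar, but would lie 0.74 below the bar of its 493-nt transcript.

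The scale between genotypes also set some calls. Deposited FPKM values of Tfeb flox/flox and Tfeb ΔIEC cells summed to 1464717 and 820344 on Day 4, and to 975316 and 973878 on Day 0. With each group divided by its sum, the median difference of all genes moved from 0.06 to 0.68 on Day 4, and the share of higher genes among those past 2-fold from 49.6% to 72.1% (from 50.4% to 72.8% on Day 11). On that scale 17 of 25 members were higher on Day 4 beside 41.6% of all genes, and 1 was lower beside 16.1%. The 10 higher members added to the 7 of the deposited scale were Casp4, Casp6, Casp8, Bid, Diablo, Gsdmd, Mlkl, Tnfrsf1a, Tradd and Trp53. Of the lower ones Pycard alone stayed past 2-fold, at -1.74, with Bax at -0.41, Bad at -0.69 and Mcl1 at -0.40. Relative to the shift of all genes these were still lower, and Casp1 at 3.02 and Nlrp6 at 2.92 were still higher.

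Exons of 10 members overlap another annotated gene, 5 of them over 10% or more of the member's exon bases. Bad shares 21.6% with Gpr137 on the other strand, Bax 22.15% with Gm45808, Bcl2l15 26.01% with Gm43064, Diablo 32.86% with Gm49027 and Pycard 12.76% with Gm45205. Since the library protocol does not mark strand, reads from the overlaps of Bad and Pycard, which are with genes on the other strand, cannot be told apart. Gm45808, Gm43064 and Gm49027 lie on the same strand as the member, where strand would not separate reads. Gm45808 and Gm49027 had no FPKM value here. Gm45205 itself was below 0.20 FPKM in all 6 groups, and Gpr137 was at 5.04 and 1.28 FPKM on Day 4, lower in Tfeb ΔIEC cells like Bad.

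A list of 78 other genes of the same pathways was described in the same way, and 76 of them were in the tables. On each day 44 had 1 FPKM in either genotype. They had 6 higher and 5 lower on Day 0, 14 higher and 9 lower on Day 4, and 14 higher and 8 lower on Day 11, with medians of 0.38, 0.68 and 0.69. The background for these counts is the same as above, 13.5% higher and 16.1% lower over all genes on Day 0, 25.6% and 26.1% on Day 4, and 26.1% and 25.7% on Day 11, with all-gene medians of 0.06, 0.06 and 0.08. The highest differences on Day 4 were in the gasdermin C genes, which share much of their sequence, so reads may be split among them. Gsdmc4 was at 283 and 2155 FPKM, Gsdmc2 at 106 and 1253 FPKM, Gsdmc3 at 10.0 and 124 FPKM and Gsdmc at 2.36 and 42.8 FPKM. The DNA sensor Aim2, at 0 and 4.20 FPKM, followed.

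On the lower side were Zbp1, a nucleic acid sensor upstream of RIPK3, at 44.8 and 11.6 FPKM on Day 4, and Cycs, which encodes the cytochrome c that binds APAF1, at 351 and 100 FPKM. Cdkn1a, which encodes the p53 target p21, was at 259 and 76.8 FPKM. The mitochondrial nuclease Endog was at 3.37 and 0.64 FPKM, and Bok, a relative of Bax, at 7.52 and 2.39 FPKM.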

How the data were processed

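RNA-seq of isolated colonic epithelial cells covered 12 samples in 6 groups of 2 animals, grouped by the labelled genotype and day. Full-length cDNA was made by a variation of SmartSeq2. According to the submitters' processing notes, reads were mapped to mm10 with TopHat2 2.0.14 and compared with Cuffdiff 2.1.1. The 3 deposited tables, 1 per day, hold 1 FPKM value per gene and genotype, which the authors computed from both animals. Whether each was scaled within its day is not known here. They also hold the authors' fold changes, test statistics, p-values, q-values and calls, which were not used. The number of reads per sample is unknown, so no interval or floor is given.

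From the FPKM values, differences of log2(FPKM + 1) were computed for genes that reached 1 FPKM in Tfeb flox/flox or Tfeb ΔIEC cells, and 2-fold was counted. With 1 pooled value per group no test was made. The members, role groups and lists were chosen with earlier results of these data known. All 35 members are named, with all days for those past 2-fold on any day or at 0 in a genotype. Of the other pathway list, the 5 higher and 5 lower genes with the largest Day 4 difference past 2-fold are named. Transcript lengths (medians over basic transcripts), exon overlaps and coordinates come from GENCODE M21, which matched 47218 genes, and start-site sequences from RefSeq (32 of 35 members matched). Alternatives were pseudocounts of 0.1 and 5 FPKM, division by the sum of values, centring on the median, subtraction of the median of like length, filters, folds of 1.5 and 4, and stricter roles (the death-promoting group without Casp2, Casp8, Bcl2l15, Nlrp6 and Trp53). After seeing the data, 4 were added: without Pycard, 1 FPKM in both genotypes, ratios without Cflar, and Pycard at the length of its shortest transcript. Computations used pandas 2.3.3, scipy 1.17.1, numpy 2.4.6 and, for figures, matplotlib 3.10.9 under Python 3.11.15, and were tested on simulated data.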

Additional observations from a re-analysis of the deposited data

Results flagged for a closer look

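Apaf1, the caspase-9 scaffold, had opposite differences on different days. In log2(FPKM + 1), Tfeb ΔIEC minus Tfeb flox/flox cells, it was at -1.37 on Day 0, 1.15 on Day 4 and 1.20 on Day 11, past 2-fold each time. It was inside 2-fold on Days 4 and 11 after subtraction of the median of like length (0.77 and 0.80), and on all 3 days with a pseudocount of 5 FPKM (-0.53, 0.35 and 0.37). The difference between days was not tested, since each group has 1 pooled value, and Days 4 and 11 are nearly the same values.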

How the results depend on the processing

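No paired analysis was possible because each group has 1 pooled value of its 2 animals, and for the same reason no animal could be left out. Division by the sum of FPKM values moved the death-promoting median to 1.37 (Day 4) and 1.35 (Day 11), the survival median to 0.94 and 0.76, the higher members to 17 and 17 (beside 41.6% and 42.1% of all genes) and the lower ones to 1 and 1 (beside 16.1% and 15.8%). A 1.5-fold limit gave 5, 12 and 14 higher members on Days 0, 4 and 11 (beside 27.3%, 36.4% and 37.1% of all genes). A 4-fold limit gave 1, 2 and 2 higher (beside 2.09%, 7.36% and 7.46%) and 0, 1 and 1 lower (beside 3.35%, 10.3% and 10.2%). A pseudocount of 5 FPKM gave 1, 2 and 2 higher (beside 2.51%, 9.33% and 9.28%) and 1, 2 and 2 lower (beside 6.24%, 13.6% and 13.6%), and a pseudocount of 0.1 FPKM gave 4 higher on Day 0 (beside 2095 of all 9993 genes). With at least 5 FPKM, 1 was higher (beside 11.4%) and 1 lower (beside 18.4%) on Day 0. Subtraction of the median of like length left 2 lower on Day 4 (beside 20.8%). The causes of these moves were not tested beyond the construction of each alternative. No member past 2-fold changed direction under any alternative run, but subtraction of the median of like length turned the sign of 8, 10 and 9 members within 2-fold on Days 0, 4 and 11, among them Bcl2l1 (-0.39), Tnfrsf1a (-0.11) and Birc3 (-0.11) on Day 4. Of the alternative values for single members, 449 stayed on the same side of 2-fold, 42 moved past it and 37 moved inside it. This tally includes members below 1 FPKM in both genotypes, such as Bcl2 and Bcl2l11, which moved past 2-fold with a pseudocount of 0.1 FPKM. Among those that moved inside was Pycard on all 3 days when its 493-nt transcript set the length (-0.74 on Day 4). The depth is unknown, so values under 1 FPKM, as for Bcl2, Bcl2l11 and Tnfrsf10b, are of unknown precision.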
